A study of Caenorhabditis elegans with 12 samples.

Results

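The genes described here are 35 genes of the nematode Caenorhabditis elegans that serve the release of synaptic and dense-core vesicles, or that are used in nearly all neurons. They were chosen by gene name. All 35 were found among the 46987 features of the deposited tables, each as a single feature, and all 35 were among the 16665 genes left by the filter on low counts. The lowest count of any of them in any library was 217. They lie on all 6 chromosomes, 9 on IV, 7 on V, 6 on X, 5 on I and 4 each on II and III. Exons of 10 of them overlap an exon of another annotated gene, over at most 5.82% of the gene's exonic bases.

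Neurons signal by fusing vesicles with the plasma membrane. Small clear vesicles carry transmitters and fuse at the active zone, a protein scaffold that holds vesicles close to calcium channels, and their membrane is then taken back by endocytosis. Dense-core vesicles carry neuropeptides, which are cut from larger precursors inside the vesicle. Both kinds use the SNARE proteins, which pull the membranes together, and both are carried down the axon by a kinesin motor. Loss of many of these genes makes worms uncoordinated, which is the origin of the name unc.

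Whole worms of the Bristol N2 strain were grown at 25 °C on agar seeded with Escherichia coli OP50, and AO168=O was mixed into the agar at 400, 2000 or 10000 ng/g. The compound is the phosphate that forms when a phosphite antioxidant of plastics is oxidised. Exposure ran from the bleached egg to the L4 larva, for about 46 h, and the control plates held no AO168=O. All 4 groups received the same solvent, 0.01% ethanol. Each group had 3 libraries, which the series describes as independent replicates, each a pool of about 1000 animals, and the labels give all 12 the same batch. Libraries were made from poly(A) RNA of whole animals, so the neurons were measured together with every other tissue. In such bulk samples, fewer cells of a type and less RNA per cell cannot be told apart.

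Total counts ran from 36897811 to 47211800 per library, of which 91930 to 145602 fell on the 35 genes. Between replicates, chi-square divided by its degrees of freedom ran from 12.6 to 257, where counting noise alone gives about 1. The largest value belonged to replicates 1 and 2 at 400 ng/g, so the counts at 400 ng/g, and the fold changes of several genes there, are also given without 1 of these libraries. Expression is given below in CPM, counts scaled to library size with TMM factors, and level per length in FPKM, as deposited. Fold changes are on the log2 scale with their standard error, from edgeR's quasi-likelihood test over all 12 libraries, with p-values adjusted by the Benjamini-Hochberg method over 16665 genes and a threshold of 0.05.

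Most of these genes lay above control by a small amount at 10000 ng/g. In 26 of the 35 genes (74.3%) all 3 exposed libraries lay above all 3 controls, against 16% of all tested genes, and in 0 did they lie below, against 18.3% of all tested genes. The median log2 fold change was 0.31, with 29 of 35 positive, beside a median of -0.01 and 48.7% positive over all tested genes. No gene of the 35 passed the edgeR threshold, which 0.252% of all tested genes did. At an unadjusted p under 0.05, 17 were higher and 0 lower, where 9.35% of all tested genes were higher and 11.2% lower. DESeq2 called 11 of the 35 higher and 0 lower, where it called 3.42% of all genes with an adjusted p higher and 3.55% lower. The 35 genes share the neurons and the libraries, so their count is not a count of separate observations.

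The edgeR count at 10000 ng/g depended on the libraries in the fit. It was 7 without 400 ng/g replicate 1, with 3.09% of all tested genes called, and 8 when only the control and 10000 ng/g libraries were fitted, with 2.67% called. The count of genes above all controls ran from 26 to 28 when each of the 6 libraries was left out, with 19.2% to 23.1% of all tested genes above.

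At 400 ng/g most of the 35 fold changes were positive, with more spread between libraries. All 3 exposed libraries lay above all 3 controls in 8 genes (22.9%), against 8.19% of all tested genes, and below in 0, against 12.2%. The median log2 fold change was 0.23, with 32 of 35 positive, beside 0.05 and 57% over all tested genes. With edgeR 0 of the 35 passed, as did 0% of all tested genes. At an unadjusted p under 0.05, 10 were higher and 0 lower, where 6.77% of all tested genes were higher and 11.7% lower. DESeq2 called egl-3, ida-1 and snt-1 higher and 0 lower, where it called 1.67% of all genes higher and 8.06% lower. Without replicate 1 at 400 ng/g, 19 genes lay above all controls, against 16.9% of all tested genes, and without replicate 2 there were 8, against 12.4%. Leaving out replicate 3 gave 14, against 14.1%, and leaving out control replicate 1 gave 17, against 14.2%. The edgeR count became 4 without 2000 ng/g replicate 3, with 5.31% of all tested genes called. For the 3 genes that DESeq2 called, the edgeR log2 fold changes without replicate 1 and without replicate 2 at 400 ng/g were 0.32 and 0.47 for egl-3, 0.36 and 0.34 for ida-1, and 0.44 and 0.46 for snt-1.

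At 2000 ng/g the values were closest to control. All 3 exposed libraries lay above all 3 controls in 5 genes (14.3%), against 6.04% of all tested genes, and below in 0, against 5.47%. The median log2 fold change was 0.13, with 32 of 35 positive, beside -0.02 and 45.6% over all tested genes. With edgeR 0 of the 35 passed, as did 0% of all tested genes, and the 1 with an unadjusted p under 0.05 was snt-1, which was higher, where 2.14% of all tested genes were higher and 3.01% lower at that p. DESeq2 also called 0 of the 35, and 0.03% of all genes. Replicate 3 was the lowest of the 3 libraries for most of these genes, and without it 20 genes lay above all controls, against 14.2% of all tested genes. Without replicate 1 the count was 9, against 8.41%, without control replicate 1 it was 11, against 15.2%, and without control replicate 3 it was 8, against 10.5%.

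**Figure D1:**
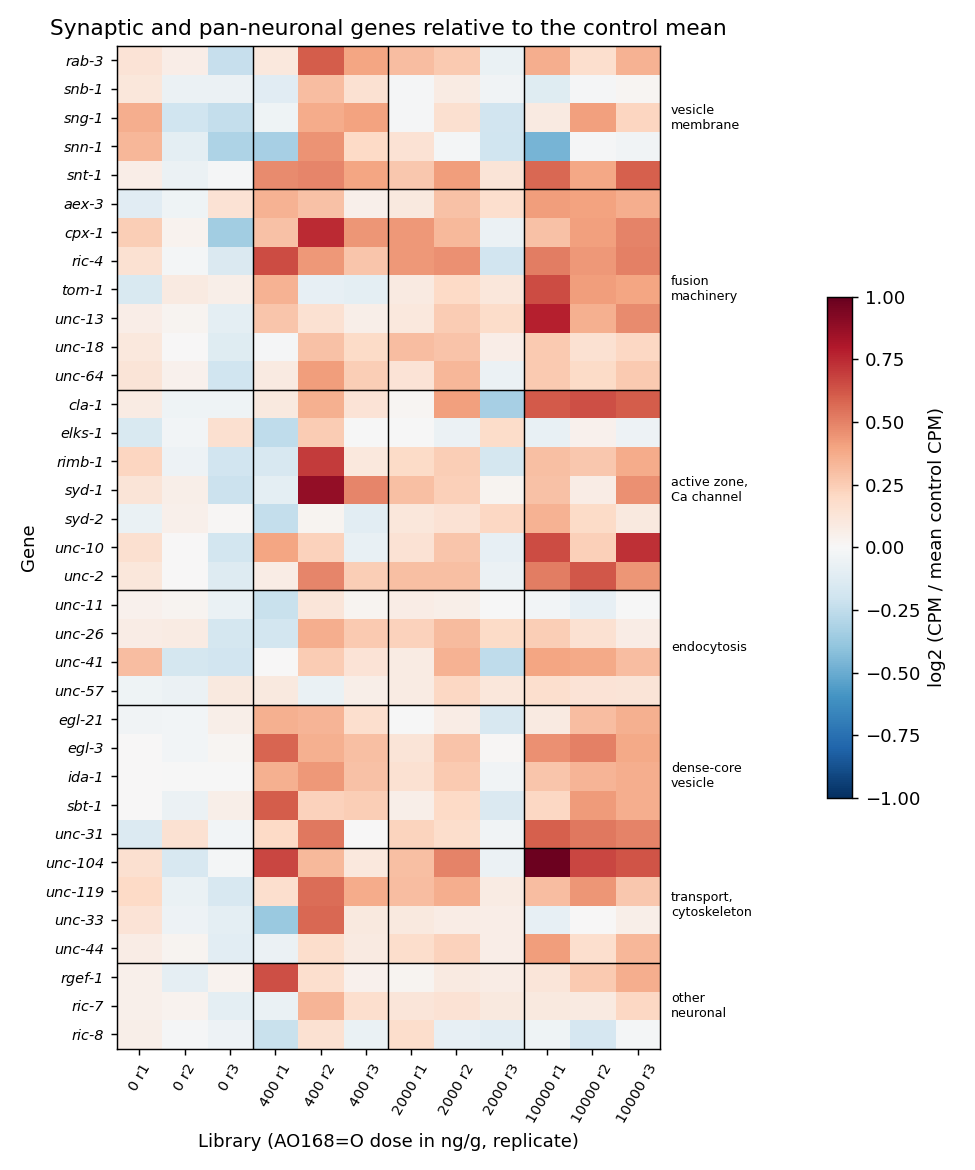
Each cell is the log2 ratio of CPM in 1 library to the mean CPM of the 3 controls, for 35 genes in rows grouped by role and 12 libraries in columns grouped by dose (r1 to r3, replicates). The 3 columns at 10000 ng/g are above the control mean in most rows, while snb-1, elks-1, unc-11, unc-33 and ric-8 stay near it, and replicates 1 and 2 at 400 ng/g differ from each other.

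As a share of all counts, before any scaling, the 35 genes held 0.243%, 0.248% and 0.243% in the controls and 0.314%, 0.309% and 0.308% at 10000 ng/g. The shares were 0.308%, 0.259% and 0.271% at 400 ng/g and 0.265%, 0.284% and 0.252% at 2000 ng/g. All 9 exposed shares lay above the highest control, with the smallest gap in replicate 3 at 2000 ng/g. After TMM scaling this library was no longer above the controls: its summed level was 2466 CPM, where the controls ran from 2387 to 2544 CPM, and the other 8 exposed libraries ran from 2701 to 3046 CPM.

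In control worms the level per length of these genes spanned a 333.4 ± 6.2-fold range (SD, n = 3) from cla-1 to snb-1. The highest was snb-1 at 194 ± 13.9 FPKM (SD, n = 3), and the next 4 were genes of dense-core vesicles: egl-21 at 137 ± 4.36, sbt-1 at 124 ± 4.79, egl-3 at 102 ± 1.43 and ida-1 at 83.2 ± 0.434 FPKM. The libraries of these 5 genes did not overlap from 1 gene to the next. The endocytosis genes unc-57 and unc-11 followed at 38.2 ± 2.19 and 33.8 ± 1.49 FPKM. From ric-7 at 30.2 ± 1.79 down to elks-1 at 14.1 ± 1.53 FPKM, each gene overlapped its neighbour in the order, and so did the run from ric-8 at 10.9 ± 0.466 to unc-2 at 6.05 ± 0.513 FPKM. The lowest were syd-1 at 1.93 ± 0.241 and cla-1 at 0.582 ± 0.0304 FPKM, which stood apart from each other. The median of the 35 genes was 10.5 FPKM, beside 8.47 FPKM over all tested genes. The deposited gene length of cla-1 is 27088 bases, and a long transcript model lowers FPKM where shorter isoforms carry the reads, which was not tested.

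**Figure D2:**
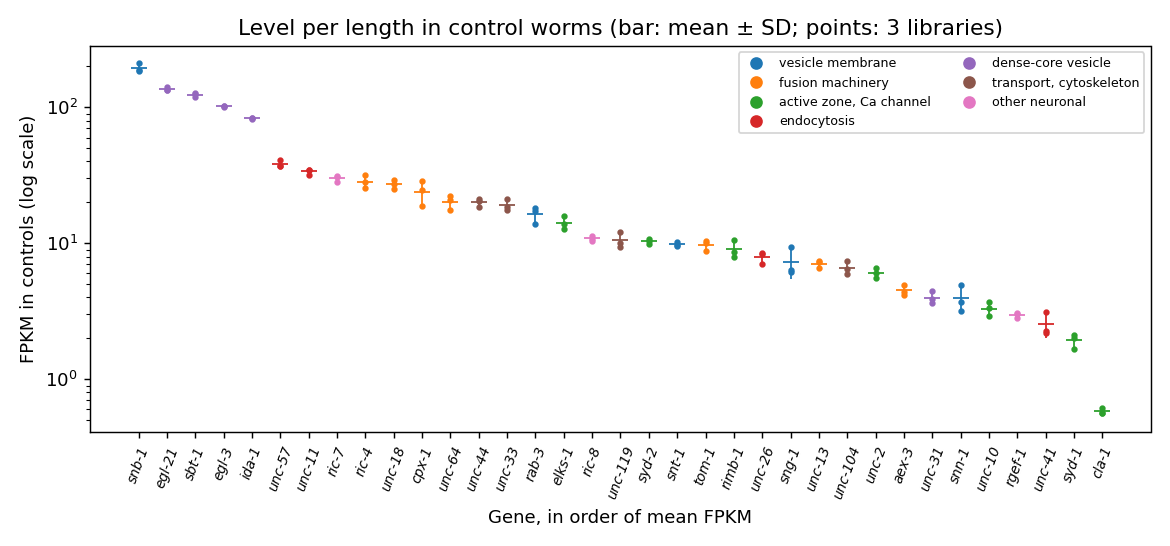
Points are the 3 control libraries, with a bar for mean ± SD of FPKM on a log axis, for 35 genes ordered by mean and coloured by role. The gene snb-1 and 4 dense-core vesicle genes form the top of the order, above 80 FPKM, and cla-1 lies lowest.

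Of 5 genes for proteins of the vesicle membrane, 2 had all 10000 ng/g libraries above the controls, snt-1 and rab-3. Of all tested genes, 16% did so. Synaptotagmin, the calcium sensor for release, is encoded by snt-1 (WBGene00004921, chromosome II, 6810963 to 6816433). Its expression was 19.9, 18.4 and 18.9 CPM in the controls, 26.4, 26.7 and 25.05 at 400 ng/g, 23, 25.4 and 20.8 at 2000 ng/g and 28.5, 24.98 and 28.8 at 10000 ng/g. All 9 exposed libraries lay above all 3 controls, and snt-1 was the only one of the 35 genes for which this held. The share of all tested genes for which it holds is not given here. The log2 fold changes were 0.45 ± 0.10 (SE), 0.28 ± 0.10 and 0.52 ± 0.10 at 400, 2000 and 10000 ng/g, with edgeR adjusted p of 0.0528, 0.855 and 0.0679. Synaptobrevin, the vesicle SNARE, is encoded by snb-1 (WBGene00004897, chromosome V, 6655562 to 6656501), and its expression was 170.4, 151.7 and 151 CPM in the controls, 146, 196 and 176 at 400 ng/g, 157, 168 and 154 at 2000 ng/g and 146, 157 and 159.9 at 10000 ng/g. The snb-1 libraries overlapped the controls at every dose, with a log2 fold change of -0.04 ± 0.11 at 10000 ng/g (edgeR adjusted p = 0.881).

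The small GTPase gene rab-3, which marks synaptic vesicles, was measured at 26.5, 25.2 and 20.5 CPM in the controls, 25.97, 36.6 and 31.6 at 400 ng/g, 29.8, 28.8 and 22.97 at 2000 ng/g and 31.03, 27.1 and 30.7 at 10000 ng/g. The libraries at 10000 ng/g lay above the controls, by 0.30 ± 0.15 (log2), with an edgeR adjusted p of 0.279, and those at the lower doses overlapped them. Synaptogyrin, a vesicle protein with several membrane spans, is encoded by sng-1, which had 9.71, 6.57 and 6.40 CPM in the controls, 7.33, 9.78 and 10.02 at 400 ng/g, 7.48, 8.47 and 6.63 at 2000 ng/g and 8.06, 10.1 and 8.77 at 10000 ng/g. Synapsin, which tethers vesicles to each other, is encoded by snn-1, which had 11.3, 8.40 and 7.28 CPM in the controls, 7.14, 12.3 and 10.4 at 400 ng/g, 9.98, 8.88 and 7.84 at 2000 ng/g and 6.53, 8.94 and 8.80 at 10000 ng/g. Both overlapped the controls at every dose, and control replicate 1 was the highest control for both. The fold change of snn-1 at 10000 ng/g was the lowest of the 35, at -0.16 ± 0.23 (edgeR adjusted p = 0.718), and its sign turned to 0.07 without control replicate 1.

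All 7 genes of the fusion machinery and its regulators had the 10000 ng/g libraries above all controls, with a median log2 fold change of 0.40. The share above was 16% over all tested genes, and the 7 genes were measured in the same libraries. Syntaxin, the SNARE of the plasma membrane, is encoded by unc-64 (WBGene00006798, chromosome III, 13277258 to 13283887), with 57.2, 53.9 and 45.6 CPM in the controls, 55.7, 69.8 and 61.9 at 400 ng/g, 57.6, 65.97 and 50.1 at 2000 ng/g and 62.6, 59.7 and 62.8 at 10000 ng/g. Its partner SNARE, encoded by ric-4 (WBGene00004364, chromosome V, 10261131 to 10270314), had 39.4, 35.02 and 32 CPM in the controls, 55.6, 47.9 and 43.1 at 400 ng/g, 47.9, 48.8 and 31.1 at 2000 ng/g and 50.7, 47.8 and 50.3 at 10000 ng/g. At 400 and 10000 ng/g the ric-4 libraries lay above the controls, and replicate 3 at 2000 ng/g lay below all of them. Its log2 fold changes were 0.46 ± 0.16 and 0.48 ± 0.16 at those doses, with edgeR adjusted p of 0.136 and 0.15. The value at 400 ng/g was 0.35 without replicate 1. For unc-64 only the 10000 ng/g libraries lay above the controls, at 0.24 ± 0.13 (edgeR adjusted p = 0.295).

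The gene unc-13 (WBGene00006752, chromosome I, 7422785 to 7454116) encodes the factor that primes docked vesicles by opening syntaxin. Its expression was 51.4, 49.9 and 45.7 CPM in the controls, 59.4, 54.6 and 51.1 at 400 ng/g, 52.6, 58.6 and 55.8 at 2000 ng/g and 84.1, 62.6 and 67.9 at 10000 ng/g. The 2000 and 10000 ng/g libraries lay above the controls, and replicate 1 at 10000 ng/g was the highest. The log2 fold change at 10000 ng/g was 0.55 ± 0.12 (edgeR adjusted p = 0.0817), and unc-13 had the smallest p of the 35 genes in the trend over dose order (unadjusted p = 0.00065, edgeR adjusted p = 0.16). The syntaxin-binding protein gene unc-18 had 78.5, 73.04 and 66.99 CPM in the controls, 72.2, 89.3 and 83.3 at 400 ng/g, 89.99, 88.7 and 76.1 at 2000 ng/g and 87.4, 80.7 and 84.2 at 10000 ng/g. Its 10000 ng/g libraries lay above the controls, by 0.21 ± 0.11 (log2), with an edgeR adjusted p of 0.292.

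Complexin, which clamps partly assembled SNAREs, is encoded by cpx-1, with 23.1, 19.95 and 15.3 CPM in the controls, 23.9, 32.5 and 26.5 at 400 ng/g, 26.3, 24.4 and 18.7 at 2000 ng/g and 23.9, 25.8 and 27.4 at 10000 ng/g. The cpx-1 libraries lay above the controls at 400 and 10000 ng/g, with a log2 fold change of 0.51 ± 0.17 at 400 ng/g and an edgeR adjusted p of 0.132. This was the largest of the 35 at 400 ng/g with all libraries, but without replicate 1 there syd-1 was larger (0.69, beside 0.60 for cpx-1), and without replicate 2 ric-4 was (0.50, beside 0.39). Tomosyn, an inhibitor of priming that competes for syntaxin, is encoded by tom-1, which ran from 39.5 to 46.6 CPM in the controls and from 57.7 to 68.9 CPM at 10000 ng/g. The Rab-3 exchange factor gene aex-3 ran from 20.6 to 24.6 CPM in the controls and from 28.6 to 29.7 CPM at 10000 ng/g. These 2 genes had log2 fold changes of 0.49 ± 0.13 and 0.39 ± 0.11 (edgeR adjusted p = 0.109 and 0.119).

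Among 7 genes of the active zone and its calcium channel, 5 had all 10000 ng/g libraries above the controls, and elks-1 and syd-1 did not. The share over all tested genes was 16%. The pore subunit of the presynaptic calcium channel is encoded by unc-2 (WBGene00006742, chromosome X, 2710920 to 2763526), with 51.2, 47.6 and 43.4 CPM in the controls, 49.96, 66.6 and 56.3 at 400 ng/g, 58.4, 58.4 and 45.6 at 2000 ng/g and 67.6, 72.9 and 64.2 at 10000 ng/g. Only at 10000 ng/g did the unc-2 groups separate, with a log2 fold change of 0.53 ± 0.13 and an edgeR adjusted p of 0.0966. The scaffold gene unc-10, for the worm RIM protein, had 18.4, 16.5 and 14.6 CPM in the controls, 21.7, 19.3 and 15.7 at 400 ng/g, 18.3, 20.1 and 15.6 at 2000 ng/g and 26.01, 19.4 and 27.3 at 10000 ng/g. Its libraries at 10000 ng/g also lay above the controls, with replicate 2 close to the highest control, and the log2 fold change was 0.56 ± 0.17 (edgeR adjusted p = 0.132).

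Clarinet, a very large active zone protein, is encoded by cla-1 (WBGene00018468, chromosome IV, 7588931 to 7628238). Its expression was 16.8, 15.4 and 15.4 CPM in the controls, 17.02, 20.4 and 17.4 at 400 ng/g, 16.1, 21.1 and 12.6 at 2000 ng/g and 24.2, 24.8 and 24.1 at 10000 ng/g. The 10000 ng/g libraries were close together and far above the controls, those at 400 ng/g lay just above them, and those at 2000 ng/g were on either side of them. The log2 fold change at 10000 ng/g was 0.62 ± 0.16, the largest but for unc-104, with an edgeR adjusted p of 0.106 and a DESeq2 adjusted p of 0.0146. Liprin-alpha, which organises the active zone, is encoded by syd-2, with 38.9, 42.1 and 41.1 CPM in the controls, 34.5, 41.6 and 37.9 at 400 ng/g, 44.03, 45.1 and 46.9 at 2000 ng/g and 51.7, 46.4 and 43.5 at 10000 ng/g. At 2000 and 10000 ng/g the syd-2 libraries lay above the controls, and at 400 ng/g they overlapped them with the lowest log2 fold change of the 35, -0.10 ± 0.10 (edgeR adjusted p = 0.657). Without replicate 1 at 400 ng/g it was -0.04, and tom-1 was lower at -0.09.

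The gene syd-1, for a RhoGAP-like protein that acts with liprin-alpha, had 7.14, 6.79 and 5.62 CPM in the controls, 6.09, 11.99 and 9.14 at 400 ng/g, 8.04, 7.67 and 6.63 at 2000 ng/g and 7.996, 6.88 and 8.93 at 10000 ng/g. These overlapped the controls at every dose, and replicates 1 and 2 at 400 ng/g were 0.97 apart on the log2 scale. The log2 fold change at 400 ng/g was 0.47 ± 0.22, or 0.69 without replicate 1 and 0.24 without replicate 2. The RIM-binding protein gene rimb-1 ran from 34.9 to 46.1 CPM in the controls and from 47.99 to 51.3 CPM at 10000 ng/g, a log2 fold change of 0.31 ± 0.20 and an edgeR adjusted p of 0.375. The scaffold gene elks-1 ran from 36.6 to 45.6 CPM and from 38.6 to 41.97 CPM, with a log2 fold change of -0.03 ± 0.13 and an edgeR adjusted p of 0.927.

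The 4 endocytosis genes had a median log2 fold change of 0.08 at 400 ng/g, the lowest of the 7 roles there, and of 0.15 at 10000 ng/g. Endophilin, which bends the membrane, is encoded by unc-57, with 65.1, 64.7 and 71.96 CPM in the controls, 71.9, 64.2 and 69.9 at 400 ng/g, 71.1, 77.8 and 72.9 at 2000 ng/g and 75.4, 74.1 and 73.7 at 10000 ng/g. Its libraries at 10000 ng/g lay above the controls by 0.14 ± 0.09 (log2), with an edgeR adjusted p of 0.35. Synaptojanin, the lipid phosphatase that uncoats vesicles, is encoded by unc-26, with 31.9, 32.1 and 26.8 CPM in the controls, 26.6, 38.9 and 36.4 at 400 ng/g, 35.5, 37.6 and 34.6 at 2000 ng/g and 35.96, 33.7 and 31.9 at 10000 ng/g. Here the 2000 ng/g libraries lay above the controls and the others overlapped them.

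The clathrin adaptor gene unc-11, which is needed to retrieve synaptobrevin, had 97.1, 95.9 and 89.9 CPM in the controls, 80.8, 103 and 96.02 at 400 ng/g, 99.4, 97.98 and 93.8 at 2000 ng/g and 92.4, 89.1 and 93.99 at 10000 ng/g. It overlapped the controls at every dose, and its log2 fold change was -0.04 ± 0.10 at 10000 ng/g (edgeR adjusted p = 0.85). The stonin gene unc-41, for an adaptor that recovers synaptotagmin, ran from 12.02 to 17.05 CPM in the controls and from 17.09 to 18.1 CPM at 10000 ng/g. Its log2 fold change was 0.36 ± 0.17 (edgeR adjusted p = 0.258).

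All 5 genes of dense-core vesicles and neuropeptide processing had the 10000 ng/g libraries above the controls, and 4 of them also had the 400 ng/g libraries above. Of all tested genes, 16% lay above at 10000 ng/g and 8.19% at 400 ng/g. Median log2 fold changes of the 5 genes were 0.36, 0.12 and 0.34 at 400, 2000 and 10000 ng/g. The proprotein convertase gene egl-3 (WBGene00001172, chromosome V, 10169177 to 10173753), for the enzyme that cuts neuropeptide precursors, had 264, 259 and 267 CPM in the controls, 394, 336 and 325 at 400 ng/g, 289, 321 and 266 at 2000 ng/g and 361, 374 and 342 at 10000 ng/g. At 400 and 10000 ng/g the egl-3 groups did not overlap the controls, with log2 fold changes of 0.42 ± 0.11 and 0.45 ± 0.11 (edgeR adjusted p = 0.0608 and 0.0945). DESeq2 gave adjusted p of 0.00366 and 0.00317. The carboxypeptidase gene egl-21, for the enzyme that trims the cut peptides, had 229, 229.6 and 243 CPM in the controls, 299, 296 and 262 at 400 ng/g, 233, 247 and 209 at 2000 ng/g and 249, 290 and 299 at 10000 ng/g.

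The chaperone gene sbt-1, whose product acts on the convertase, had 98.8, 94.7 and 103 CPM in the controls, 150.3, 115.7 and 117 at 400 ng/g, 103, 113.3 and 89.5 at 2000 ng/g and 114, 133 and 127 at 10000 ng/g. The gene ida-1, for a phosphatase-like protein of the dense-core vesicle membrane, had 217, 217 and 217 CPM in the controls, 277, 293 and 265 at 400 ng/g, 242, 259.5 and 212 at 2000 ng/g and 264, 275 and 279 at 10000 ng/g. Its controls were nearly identical, at 217 ± 0.438 CPM (SD, n = 3), and its log2 fold changes were 0.36 ± 0.10, 0.13 ± 0.10 and 0.33 ± 0.10 (edgeR adjusted p = 0.0654, 0.855 and 0.127). Both genes, like egl-21, lay above the controls at 400 and 10000 ng/g and overlapped them at 2000 ng/g, where replicate 3 was the lowest library of all 12 for all 3 genes.

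The gene unc-31 (WBGene00006767, chromosome IV, 12773867 to 12788354) encodes the worm CAPS protein, which primes dense-core vesicles for fusion. Its expression was 19.1, 23.3 and 20.7 CPM in the controls, 24.2, 30.3 and 21.1 at 400 ng/g, 24.5, 23.7 and 20.5 at 2000 ng/g and 31.9, 30.3 and 29.6 at 10000 ng/g. The 10000 ng/g libraries lay above the controls and the lower doses overlapped them, with a log2 fold change of 0.54 ± 0.14 at 10000 ng/g (edgeR adjusted p = 0.101).

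**Figure D3:**
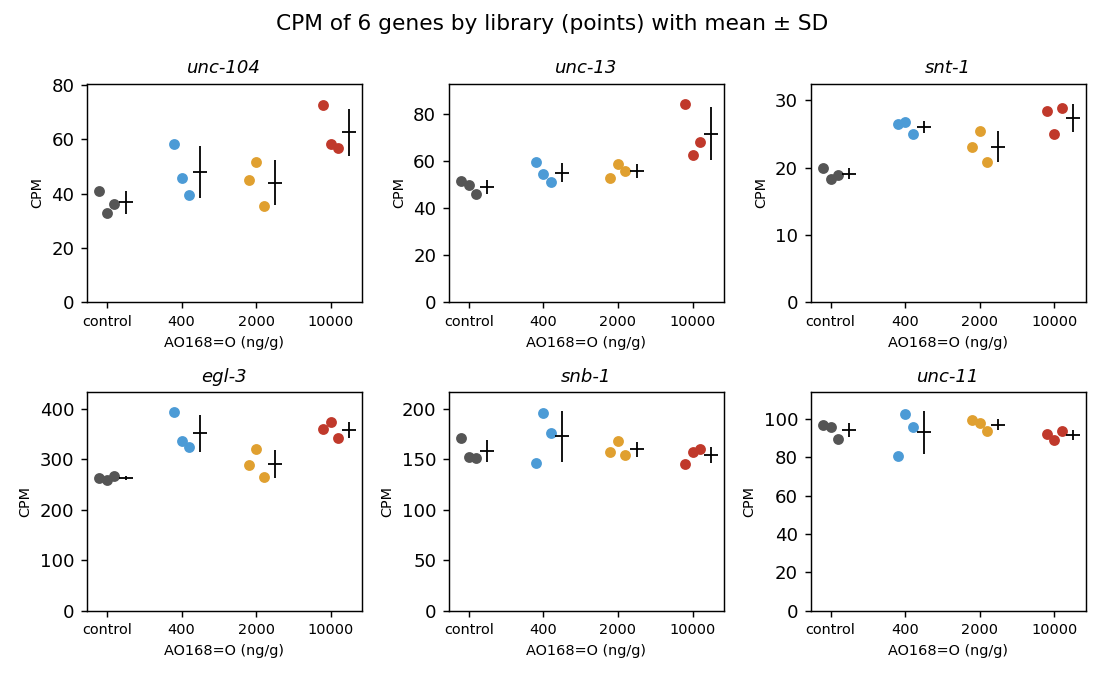
CPM in each of the 12 libraries (points, 3 per group) with mean ± SD beside them, for 6 genes, from 0 upward. The genes unc-104, unc-13, snt-1 and egl-3 have all 10000 ng/g libraries above the controls, and snb-1 and unc-11 overlap the controls at every dose.

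The largest fold change at 10000 ng/g was that of unc-104 (WBGene00006831, chromosome II, 6994987 to 7010625), which encodes the kinesin that carries vesicle precursors along the axon. Its expression was 41.1, 32.8 and 36.2 CPM in the controls, 58.3, 45.9 and 39.5 at 400 ng/g, 45.2, 51.7 and 35.3 at 2000 ng/g and 72.6, 58.4 and 56.8 at 10000 ng/g. Replicate 1 at 10000 ng/g was the highest, replicate 1 was also the highest at 400 ng/g, and replicate 3 at 2000 ng/g lay among the controls. The log2 fold changes were 0.38 ± 0.17, 0.26 ± 0.17 and 0.77 ± 0.17 (edgeR adjusted p = 0.263, 0.855 and 0.0879). At 10000 ng/g the DESeq2 adjusted p was 0.00487, and edgeR gave an adjusted p of 0.0275 without 400 ng/g replicate 1.

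Ankyrin, which anchors membrane proteins to the axonal skeleton, is encoded by unc-44, the member with the most counts, with 487, 472 and 429 CPM in the controls, 445, 523 and 492 at 400 ng/g, 521, 544 and 485 at 2000 ng/g and 617, 520.2 and 582 at 10000 ng/g. Its 10000 ng/g libraries lay above the controls, with a log2 fold change of 0.31 ± 0.11 and an edgeR adjusted p of 0.162. The gene unc-33, for a CRMP protein that acts on microtubules, had 75.9, 66.5 and 64.3 CPM in the controls, 53.2, 102 and 73.7 at 400 ng/g, 73.6, 72.6 and 72.04 at 2000 ng/g and 65.01, 69.1 and 71.8 at 10000 ng/g. Its groups overlapped at every dose, and its lowest and highest libraries of all 12 were replicates 1 and 2 at 400 ng/g. The gene unc-119, for a lipid-binding trafficking protein used as a pan-neuronal marker, had 11.2, 9.36 and 8.78 CPM in the controls, 10.97, 14.4 and 12.7 at 400 ng/g, 12.2, 12.6 and 10.4 at 2000 ng/g and 12.1, 13.3 and 11.8 at 10000 ng/g, with the 10000 ng/g libraries above the controls (log2 fold change 0.34 ± 0.15, edgeR adjusted p = 0.217).

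Of the other neuronal genes, rgef-1, for a Ras exchange factor and another pan-neuronal marker, had 8.44, 7.69 and 8.37 CPM in the controls, 12.8, 9.19 and 8.43 at 400 ng/g, 8.32, 8.68 and 8.60 at 2000 ng/g and 8.89, 9.77 and 10.5 at 10000 ng/g. Its 10000 ng/g libraries lay above the controls by a small amount, 0.25 ± 0.16 (log2; edgeR adjusted p = 0.383), and replicate 1 at 400 ng/g was the highest of all 12. The G protein regulator gene ric-8 had 27.6, 26.3 and 25.6 CPM in the controls, 22.7, 29.5 and 25.3 at 400 ng/g, 29.9, 24.98 and 24.6 at 2000 ng/g and 25.7, 23.6 and 26.1 at 10000 ng/g, which overlapped the controls at every dose (log2 fold change -0.08 ± 0.12 at 10000 ng/g, edgeR adjusted p = 0.734). The gene ric-7, needed to bring mitochondria into axons, ran from 82.4 to 91.4 CPM in the controls and from 93.96 to 101.9 CPM at 10000 ng/g (log2 fold change 0.14 ± 0.11, edgeR adjusted p = 0.479).

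**Figure D4:**
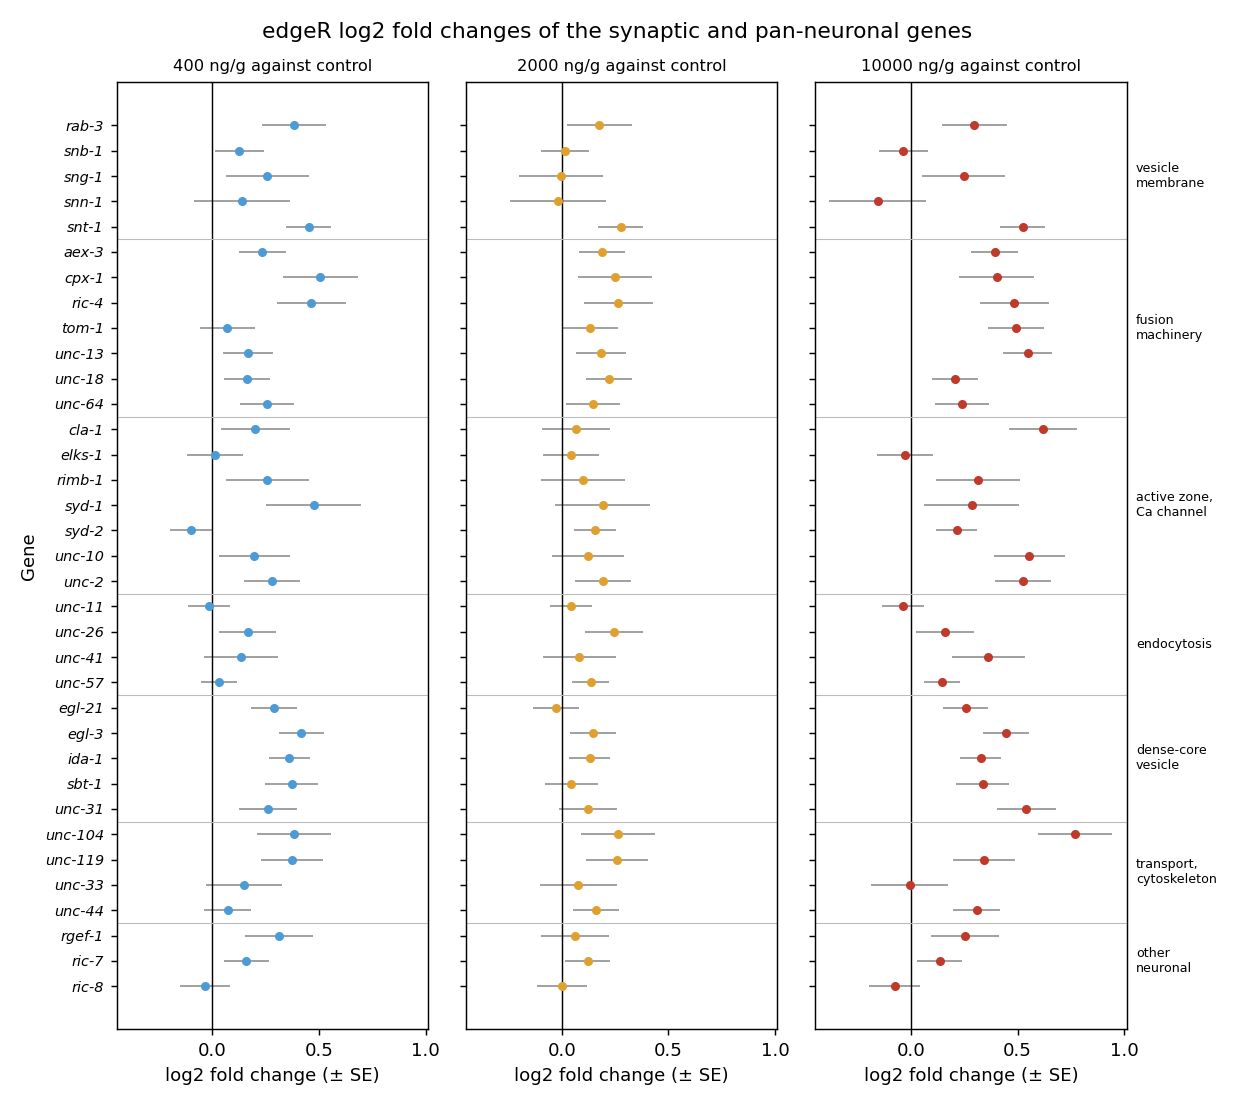
Points are edgeR log2 fold changes against control with bars of ± 1 SE, for 35 genes grouped by role, at 400, 2000 and 10000 ng/g. At 10000 ng/g the points run from -0.16 for snn-1 to 0.77 for unc-104, and at 2000 ng/g all lie between -0.03 and 0.28.

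The doses were also compared with each other, in tests that share the libraries above. With edgeR 0 of the 35 passed between 10000 and 2000 ng/g, where 0.048% of all tested genes did, between 10000 and 400 ng/g (0.096%) and between 2000 and 400 ng/g (0%). At an unadjusted p under 0.05, 11 were higher and 0 lower at 10000 than at 2000 ng/g, where 7.04% of all tested genes were higher and 3.19% lower, and DESeq2 called 0 of the 35 and 0.855% of all genes. Of the 11, cla-1 had the smallest p, with a log2 difference of 0.55 ± 0.16 (edgeR adjusted p = 0.338). Between 10000 and 400 ng/g, cla-1, syd-2, tom-1, unc-104 and unc-13 were higher at that p and 0 lower, where 4.52% of all tested genes were higher and 4.98% lower, and DESeq2 called 0 of the 35 and 0.992% of all genes. Between 2000 and 400 ng/g, egl-21, egl-3, ida-1 and sbt-1 were lower and syd-2 higher, where 4.16% were lower and 5.09% higher, and DESeq2 called 0 of the 35 and 0.0721% of all genes. A fit of the 10000 and 2000 ng/g libraries alone called tom-1 and unc-31, with 5.6% of all tested genes called.

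The dose group with the highest mean CPM was 10000 ng/g for 16 genes, 400 ng/g for 14 and 2000 ng/g for 5, and the control had the highest mean for 0 and the lowest for 26. These counts were not made over all tested genes, and the 35 genes share the same control libraries. The test of any dose against control passed for 0 of the 35 with edgeR, where 0.084% of all tested genes passed, and 15 had an unadjusted p under 0.05, where 17.6% of all tested genes did. DESeq2 called 10 in that test, where it called 10.8% of all genes. In the trend over dose order 0 passed with edgeR, where 0.006% of all tested genes did. At an unadjusted p under 0.05, 12 were higher and 0 lower, where 6.42% of all tested genes were higher and 5.89% lower. DESeq2 called unc-104 and unc-13, where it called 0.852% of all genes higher.

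Within groups the median coefficient of variation over 3 libraries was lower for these genes than over all tested genes. For these genes it was 8.82% in the controls and 13.9%, 9.80% and 5.96% at 400, 2000 and 10000 ng/g. Over all tested genes it was 15.99%, 22.1%, 12.6% and 10.6%. The sets were not matched on count, on which this measure depends. The spread at 400 ng/g came with genes that differed in opposite directions between replicates 1 and 2. From replicate 1 to replicate 2, syd-1, unc-33, rimb-1 and snn-1 differed by 0.97, 0.94, 0.86 and 0.78 on the log2 scale, and rgef-1, tom-1, sbt-1 and unc-104 by -0.47, -0.42, -0.38 and -0.35. The median of the 35 genes was 0.31, beside -0.06 over all tested genes. Replicate 3 at 2000 ng/g was lower than replicate 2 in all but 2 of the 35 genes, elks-1 and syd-2, with a median log2 ratio of -0.22, beside 0.00 over all tested genes.

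The genes with the largest fold changes at 10000 ng/g were often long. Across the 35 genes, Spearman's correlation of the log2 fold change with gene length was 0.39 at 10000 ng/g, 0.12 at 2000 ng/g and -0.29 at 400 ng/g. Across all 16665 tested genes it was 0.18, 0.21 and 0.05. The 17 genes longer than 2773 bases had a median log2 fold change of 0.36 at 10000 ng/g and the other 18 of 0.25, and all tested genes above and below that length had medians of 0.11 and -0.04. These are descriptions across genes measured in the same libraries, and the part of length in the result was not tested.

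Other genes of synaptic transmission, a list of 70 names of which 69 were found and tested, lay on the same side. It holds further genes of the endocytic machinery, axonal transport, G protein signalling and the ion channels of release. With edgeR 0 of 69 passed at any dose, and at an unadjusted p under 0.05, 15, 8 and 26 were higher and 0, 1 and 0 lower at 400, 2000 and 10000 ng/g, where 6.77%, 2.14% and 9.35% of all tested genes were higher. Their median log2 fold changes were 0.16, 0.11 and 0.21, and DESeq2 called 4, 0 and 13 higher and 0 lower, where it called 1.67% and 3.42% of all genes higher at 400 and 10000 ng/g. Of the 69, 31 had all 10000 ng/g libraries above the controls and 1 below, where 16% of all tested genes lay above and 18.3% below. The smallest p at 10000 ng/g were those of unc-80, for a subunit of the sodium leak channel complex, and cca-1, for a low-voltage calcium channel. Expression of unc-80 was 29.8, 32.2 and 27.3 CPM in the controls and 47.4, 40.9 and 45.98 CPM at 10000 ng/g (log2 fold change 0.59 ± 0.13, edgeR adjusted p = 0.0917). Expression of cca-1 was 23.6, 22.2 and 24.4 CPM and 39.2, 31.7 and 29.3 CPM (log2 fold change 0.51 ± 0.12, edgeR adjusted p = 0.0934).

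Transcription factors that set neuronal identity form another list. Of 16 names, 15 were found and 14 were tested, and 0 passed with edgeR at any dose. At an unadjusted p under 0.05, 1, 2 and 3 were higher and 0 lower at 400, 2000 and 10000 ng/g. Of all tested genes, 6.77%, 2.14% and 9.35% were higher. DESeq2 called 0 of the 14, where it called 1.67% and 3.42% of all genes higher at 400 and 10000 ng/g. The medians were 0.29, 0.07 and 0.23 at 400, 2000 and 10000 ng/g. The smallest p at 10000 ng/g was that of unc-3, which sets the identity of cholinergic motor neurons, at 3.29, 2.45 and 2.28 CPM in the controls and 4.59, 5.40 and 3.998 CPM at 10000 ng/g (log2 fold change 0.80 ± 0.28, edgeR adjusted p = 0.158).

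Markers of other tissues were measured in the same libraries. Median log2 fold changes at 10000 ng/g were -0.01 over 13 body wall muscle genes, 0.05 over 11 intestinal genes, 0.04 over 9 hypodermal genes and 0.11 over 10 glial genes, beside 0.31 for the 35 neuronal genes. At 2000 ng/g the muscle median was 0.24, with 11 of 13 genes positive, above the 0.13 of the neuronal genes, and the intestinal, hypodermal and glial medians were 0.06, 0.06 and 0.10. At 400 ng/g the muscle median was 0.12, with 12 of 13 positive, the glial median 0.16, the hypodermal 0.08 and the intestinal -0.02, beside 0.23 for the neuronal genes. The summed level of the muscle genes ran from 13021 to 17242 CPM in the controls and from 13960.2 to 15746 CPM at 10000 ng/g, and at 400 ng/g from 9917 to 21615 CPM, lowest in replicate 1. In 1 muscle, 4 intestinal, 2 hypodermal and 4 glial genes all 10000 ng/g libraries lay above the controls, where 16% of all tested genes did. Germ-line and oocyte genes lay on the other side of control. Their medians over 24 genes were -0.60, -0.26 and -0.65 at 400, 2000 and 10000 ng/g. In 12, 0 and 20 of the 24 all libraries lay below the controls, against 12.2%, 5.47% and 18.3% of all tested genes. Their summed level ran from 1859 to 2335 CPM in the controls, from 1370 to 1571 CPM at 400 ng/g, from 1497 to 2219 CPM at 2000 ng/g and from 1334 to 1573 CPM at 10000 ng/g. Sperm genes had medians of -1.82, -0.91 and -1.31 over 34 genes, and their summed level was between 943 and 2055 CPM in control libraries. It was between 232 and 644 CPM at 400 ng/g, between 467 and 1133 CPM at 2000 ng/g and between 380.1 and 749 CPM at 10000 ng/g. All 3 libraries lay below all controls in 33 of 34 sperm genes at 400 and at 10000 ng/g, and in 0 at 2000 ng/g. Of all tested genes, 12.2%, 5.47% and 18.3% did so at 400, 2000 and 10000 ng/g. Most of the sperm genes are near-identical copies of the major sperm protein gene, among which counting may split reads, so single copies are uncertain. The 9 genes taken as adult cuticle markers, not checked to be particular to the adult, had medians of -0.77, -0.47 and -0.77. Of these, 2, 0 and 4 had all libraries below the controls, beside the same shares of all tested genes. Their mean log2 level per library, relative to the control mean, spanned -0.64 to 0.81 for control libraries. The 400 ng/g libraries spanned -1.54 to -0.00 and those at 10000 ng/g -1.39 to -0.29, so both overlapped the controls by that measure. The summed level of these 9 genes ran from 1926 to 2483 CPM in the controls and from 1690 to 2089 CPM at 2000 ng/g. It ran from 1393 to 1747 CPM at 400 ng/g and from 1406 to 1539 CPM at 10000 ng/g, both below all controls.

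With edgeR 0 genes of these lists passed at any dose, and none was at 0 in all libraries. At 10000 ng/g and an unadjusted p under 0.05, 16 germ-line and oocyte genes, 30 sperm genes and 2 adult cuticle genes were lower. At that p, 1 muscle, 3 intestinal, 1 hypodermal and 2 glial genes were higher. Of all tested genes, 11.2% were lower and 9.35% higher. DESeq2 called 6 germ-line and oocyte and 20 sperm genes lower and 1 glial gene higher at 10000 ng/g. It called 3.55% of all genes lower and 3.42% higher. At 400 ng/g it called 8 germ-line and oocyte, 32 sperm and 2 adult cuticle genes lower, where it called 8.06% of all genes lower. No gene of these marker lists was called higher at 400 ng/g. The germ-line and sperm lists thus lay below the controls in every library at 400 and 10000 ng/g, where the neuronal list lay above them. The part of reproductive tissue and of developmental stage in the neuronal values was not tested.

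**Figure D5:**
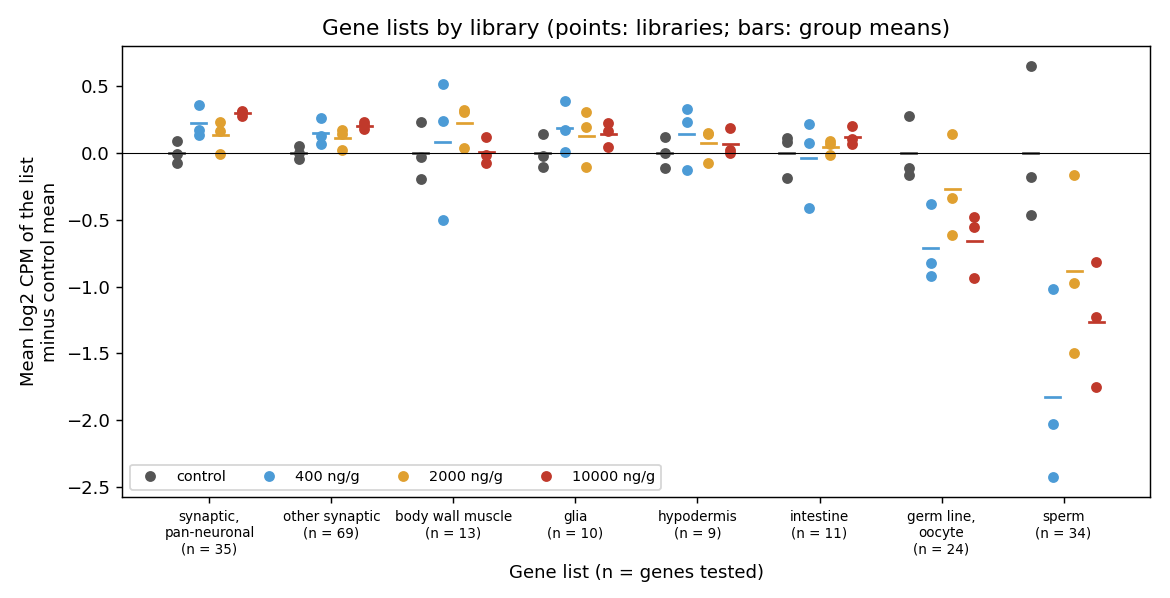
Each point is 1 library and each bar a group mean of the mean log2 CPM of a gene list minus its mean over the controls, for 8 lists and 4 groups. The 35 synaptic and pan-neuronal genes lie between 0.28 and 0.31 at 10000 ng/g and between -0.08 and 0.09 in the controls, while sperm and germ-line lists lie below their controls at 10000 ng/g.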

How the data were processed

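Poly(A) RNA of 12 whole-worm libraries, 3 in each of 4 groups, was sequenced. The deposited tables give, for 46987 features, the counts that the authors made, and FPKM, the same counts scaled by gene length and library total, which recomputation from the deposited counts and lengths matched. The submitters' processing notes list HISAT2 2.2.1 and featureCounts 2.0.6, beside CASAVA and DESeq2 1.42.0. Neither the strand setting nor the build is given in the sources used here. Coordinates of all 35 genes and of 46926 features equal those of WBcel235 in Ensembl release 115.

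The deposited counts were tested with edgeR 4.0.16 (R 4.3.3; limma 3.58.1) by the quasi-likelihood test, with TMM factors, the filterByExpr filter, 1 fit over 12 libraries and Benjamini-Hochberg adjustment over 16665 genes at a threshold of 0.05. The common dispersion was 0.0579, a coefficient of variation of 24.1%. On simulated data for 10000 ng/g against control, over 16457 genes, edgeR recovered 13.4%, 46.3% and 92.4% of genes changed 1.5-, 2- and 4-fold, with 6 false among 107 calls. DESeq2 1.42.0 recovered 23.9%, 65.7% and 95.5%, with 24 false among 147. Most differences described here are smaller than 1.5-fold. CPM used TMM factors. Alternatives were other scaling factors, no filter, DESeq2, a replicate block, a fit of just the groups compared, a trend over the dose itself and leaving out each library.

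The genes and lists were chosen with earlier results of these data known. Values in every library are given for members past the threshold in any test (there were 0), for the 3 highest and 3 lowest fold changes at each dose, and for a few members of each role. Genes of the other lists were named by smallest p. Correlations of deviations between same-numbered libraries ran from -0.471 to 0.339, and between differently numbered libraries from -0.501 to 0.488. The replicate numbers were therefore not taken to pair the libraries, though these values cannot show how the libraries were handled. Promoter sequences were not used here.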

Additional observations from a re-analysis of the deposited data

How the results depend on the processing

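The count of the 35 genes called by edgeR was 0 in every comparison and stayed 0 with other scaling factors and without the filter. No fit with the replicate block called any of them (0 in each comparison), and the medians under the block were 0.23, 0.13 and 0.31 at 400, 2000 and 10000 ng/g. Elsewhere the replicate numbers were not taken to pair the libraries. DESeq2 called 3 at 400 ng/g, 11 at 10000 ng/g, 10 for any dose and 2 in the trend. Of all genes it called 9.73%, 6.97%, 10.8% and 1.28% there, in both directions together. Fitting only the groups compared called 8 at 10000 ng/g against control and 2 at 10000 against 2000 ng/g, with 2.67% and 5.6% of all tested genes called. With each library left out in turn, the count ran from 0 to 4 at 400 ng/g (4 without 2000 ng/g replicate 3), from 0 to 7 at 10000 ng/g (7 without 400 ng/g replicate 1), and from 0 to 1 at 10000 against 400 ng/g and for any dose (tom-1, without 400 ng/g replicate 1). Of all tested genes, 5.31% were called in the fit with 4 and 3.09% in the fit with 7. In the fits that called tom-1 the shares were 4.37% at 10000 against 400 ng/g and 1.09% for any dose. With each library left out, the median log2 fold change of the 35 genes ran from 0.17 to 0.29, from 0.10 to 0.20 and from 0.26 to 0.37 at the 3 doses. The cause of these differences was not tested.

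The count of genes above all controls was also computed under settings chosen after seeing the data. At 400 ng/g it was 13 with plain CPM (6.05% of all tested genes) and 10 with size factors (8.2%). With 1 library left out it ran there from 8 to 19 (11% to 16.9%). At 2000 ng/g it was 7 with plain CPM (7.12%) and 9 with size factors (6.87%), and ran from 5 to 20 (8.25% to 15.2%). At 10000 ng/g it was 27 with plain CPM (20.2%) and 26 with size factors (16.4%), and ran from 26 to 28 (19.2% to 23.1%). Among the 3 highest and 3 lowest fold changes at each dose the sign turned for sng-1 at 2000 ng/g, with 0.01 under size factors and DESeq2, 0.00 with only the groups compared and -0.11 to 0.24 with 1 library left out. With 1 library left out, it also turned for ric-8 (-0.12 to 0.04) and unc-11 (-0.07 to 0.07) at 400 ng/g, for egl-21 (-0.08 to 0.04) and snn-1 (-0.15 to 0.20) at 2000 ng/g, and for snn-1 (-0.29 to 0.07) and unc-11 (-0.07 to 0.01) at 10000 ng/g. Over all 35 genes the sign turned with some library left out for 8 at 400 ng/g, 9 at 2000 ng/g and 5 at 10000 ng/g, the last being elks-1, snb-1, snn-1, unc-11 and unc-33. Of the values for the highest and lowest genes under an alternative, 298 kept direction and side of the threshold, 19 turned sign and 7 passed it. In the simulation, whose genes were not matched to the 35, edgeR recovered 13.4% and DESeq2 23.9% of 1.5-fold changes. Smaller changes were not simulated.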
